A study of Mus musculus with 6 samples.

Results

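The Hox genes are the homeobox genes that give cells their position along the body axis and the limb, and here they were all mouse genes with a symbol of the form Hoxa, Hoxb, Hoxc or Hoxd followed by a number. Of 19938 genes with a value, 37 were such genes, each with 1 probe set that named that gene only. Hoxb8 shared its probe set with Hoxb7 and is not among them. The samples were Cxcl12-abundant reticular (CAR) cells, marrow stromal cells rich in the chemokine transcript Cxcl12, sorted by flow cytometry from the marrow of femur and tibia of C57BL/6 mice aged 7 weeks. CAR cells that Dmp1-Cre had targeted were compared with CAR cells that it had not, with 3 arrays each. All mice carried Dmp1-Cre and 1 Cxcl12-gfp allele, so both populations had the same genotype. Cre stands under the control of Dmp1, which osteocytes and mature osteoblasts use for a bone matrix protein, and the labels do not state how cells with Cre activity were recognised in the sort. Both populations came from 3 mice according to the series' design text, with the cells of 1 mouse as 1 sample.

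Mouse Hox genes lie in 4 clusters, A on chromosome 6, B on chromosome 11, C on chromosome 15 and D on chromosome 2, and genes of the same paralogue number (1 to 13) in different clusters descend from a common ancestor. Low numbers lie at the 3′ end of a cluster and pattern anterior parts of the embryo, and high numbers lie at the 5′ end and pattern posterior parts and the distal limb. In the hindlimb skeleton, genes of paralogue number 10 are known for the thigh, number 11 for the shank and number 13 for the foot, and adult bone and marrow stroma keep a Hox code of their limb region. Hox proteins bind DNA together with cofactors of the Pbx and Meis families. Hox genes such as Hoxa9 and Hoxb4 are also used by blood progenitors.

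The values were log2 array intensities of RMA, a method that summarises the probes of a probe set. The arrays' median intensities ran from 79.4 to 87.5 on the linear scale. Dmp1 was at 11.28, 10.03 and 9.89 in targeted cells, against 7.51, 6.93 and 6.91 in non-targeted cells. All 12 listed markers of CAR cells and marrow stroma, among them Cxcl12, Lepr and Kitl, lay above background, as defined in the next paragraph, on all 6 arrays. All 12 had lower means in targeted cells, with a median log2 difference of -0.34, and 0 passed the test while 4 had an unadjusted p under 0.05. Among them Lepr was at 12.02, 11.67 and 11.70 in targeted cells, against 12.29, 12.29 and 12.28 in non-targeted cells (log2 difference -0.49, limma adjusted p = 0.947), and the part of this shift in the Hox results was not tested. Of 10 markers of blood progenitors and leukocytes, 5 were not above background on any array, including Ptprc, the pan-leukocyte gene, at 5.34 to 5.90 in targeted cells and at 5.44 to 5.98 in non-targeted cells. Kit, Gfi1b and Hlf were above background on all 6 arrays, with Kit at 7.48 to 8.57, and Flt3 and Gata1 on 5. The list's summed linear intensity was 929 to 1105 in targeted cells and between 942 and 1174 in non-targeted cells. Of 7 B lineage markers, 3 were above background on all arrays and 3 on none. Vpreb1, above it on 5 arrays, was at 8.33, 6.22 and 6.98 in targeted cells, against 9.19, 7.81 and 9.16 in non-targeted cells. Its log2 difference was -1.54 (limma adjusted p = 0.970). Of the 5 tested B lineage markers, 1 had a higher and 4 a lower mean in targeted cells, with a median log2 difference of -0.02. Of 8 endothelial markers, 5, including Cdh5 and Pecam1, were not above background on any array. Ramp2 and Stab2 were above it on all 6 arrays and Tie1 on 3. Ramp2 was at 7.61, 7.76 and 7.88 in targeted cells, against 7.96, 8.04 and 8.12 in non-targeted cells. Of the 4 tested endothelial markers, 2 had a higher and 2 a lower mean in targeted cells, with a median log2 difference of 0.007. Targeted replicate 1 stood apart in neutrophil transcripts, where S100a8 was at 6.97, 11.34 and 11.84 in targeted cells, against 11.43, 11.31 and 11.97 in non-targeted cells. It also stood apart in Postn, a matrix gene of periosteum, at 10.44, 7.43 and 7.27 in targeted cells, against 7.26, 6.26 and 5.51 in non-targeted cells. The summed linear intensity of 10 neutrophil markers was 1037 to 11231 in targeted cells, against 8861 to 13800 in non-targeted cells, and that of 10 osteoblast markers was 19092 to 29507 in targeted cells, against 13558 to 16351 in non-targeted cells. The part of these cell types in the Hox results was not tested.

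No detection calls came with the values, so background was taken as the 95th percentile, on each array, of 1194 olfactory and vomeronasal receptor genes, which marrow stroma is not known to use. This level was 6.24, 6.53 and 6.52 on the targeted arrays, against 6.49, 6.20 and 6.41 on the non-targeted arrays. By this measure 25 of the 37 Hox genes (67.6%) were above background on all 6 arrays, 4 were above it on some arrays, and 8 were above it on none, against 46.7% of all genes above it on all arrays. Probes differ in how brightly they bind, so a level is read here against this background and not as an order of abundance between genes. Being just above it does not show expression, since Gsx1 and Cdx1, homeobox genes of the brain and gut, were also above it on all arrays, with values between 6.79 and 7.40. With the 99th percentile as background, 15 Hox genes (40.5%) were above it on all arrays, against 26.1% of all genes and 0 of the 6 ParaHox and Cdx genes.

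**Figure D1:**
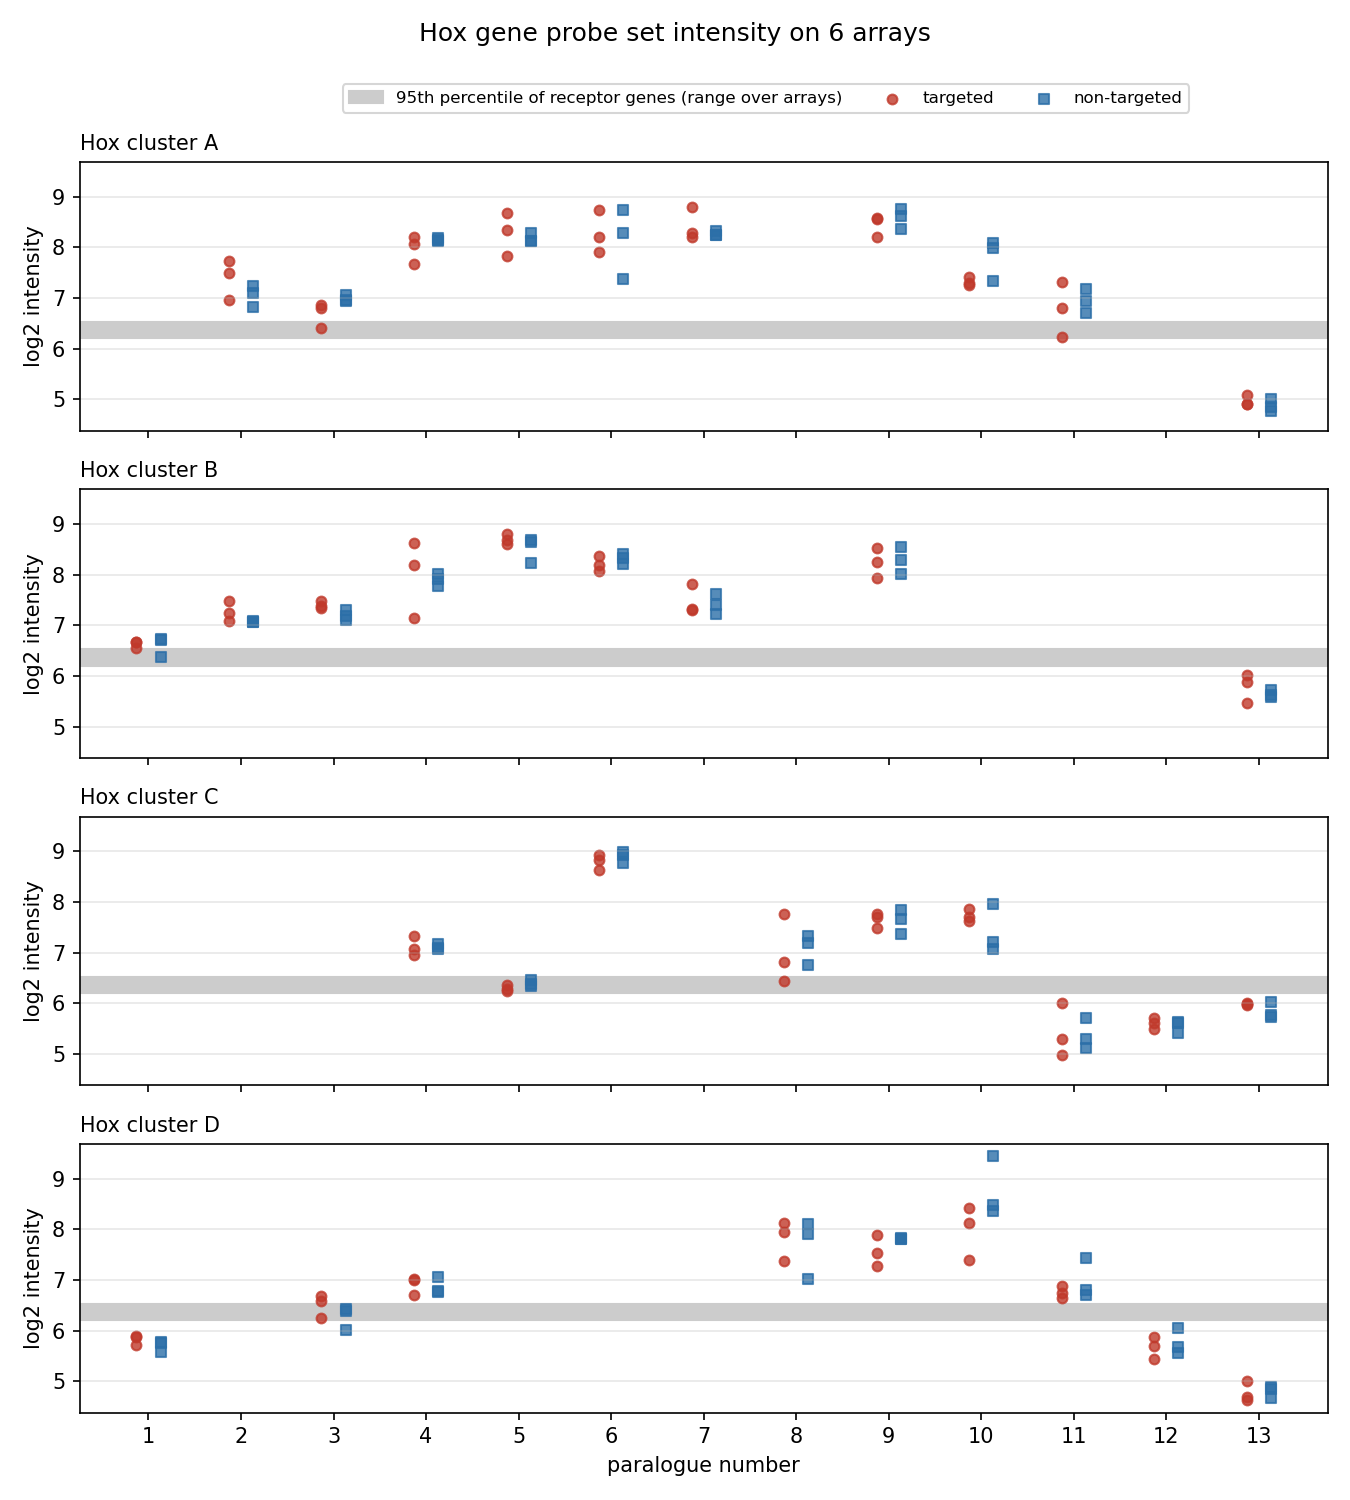
Log2 intensity (vertical axis) of each Hox gene by paralogue number (horizontal axis), 1 panel per cluster, with 1 point per array: circles are targeted and squares non-targeted CAR cells. The grey band is the range over the 6 arrays of the 95th percentile of receptor genes, and the genes of numbers 12 and 13 lie under it in every cluster that has them.

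Genes at the 5′ end of the clusters gave no signal above background. All 6 measured genes of numbers 12 and 13 were below background on every array, with values between 4.62 and 6.06. Hoxa13 and Hoxd13, which pattern the digits, were at 4.91, 4.91 and 5.08 and at 4.62, 4.69 and 5.01 in targeted cells, against 5.01, 4.77 and 4.85 and 4.89, 4.85 and 4.66 in non-targeted cells. Hoxb13, a gene of the tail and prostate, was at 5.46 to 6.03 in targeted cells and at 5.58 to 5.72 in non-targeted cells. Hoxc13, a gene of hair and nail, was nearer to background, at 5.97 to 6.00 in targeted cells and at 5.74 to 6.03 in non-targeted cells, and was above the 90th percentile of the receptor genes on some arrays. Hoxc12 and Hoxd12 were at 5.41 to 6.06 over all arrays.

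Paralogue number 11, the shank group, was split between clusters. Hoxa11 was at 6.80, 7.32 and 6.24 in targeted cells, against 7.18, 6.71 and 6.95 in non-targeted cells, and was above background on 5 arrays, targeted replicate 3 being the exception. Hoxd11 was above it on all arrays, at 6.74, 6.88 and 6.65 in targeted cells, against 6.79, 6.71 and 7.44 in non-targeted cells. Its smallest margin was 0.12, and both Hoxa11 and Hoxd11 were above the 99th percentile of the receptor genes on some arrays only. Hoxc11 was below it on every array, at 4.99 to 6.00 in targeted cells and at 5.12 to 5.71 in non-targeted cells. Femur and tibia were pooled, so the level of a gene used in only 1 of the bones is an average over both, and in a bulk sample fewer cells of a type and less RNA per cell cannot be told apart.

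The genes of numbers 9 and 10 were above background on every array in every cluster that has them. Hoxc10 and Hoxd9 were above the 99th percentile of the receptor genes on some arrays only. Hoxa9 was at 8.58, 8.20 and 8.56 in targeted cells, against 8.61, 8.36 and 8.76 in non-targeted cells. Hoxb9 was at 7.93, 8.26 and 8.52 in targeted cells, against 8.02, 8.29 and 8.55 in non-targeted cells. Hoxc9 was at 7.49, 7.70 and 7.75 in targeted cells, against 7.67, 7.38 and 7.83 in non-targeted cells. The populations overlapped for all 3 of these genes.

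The central genes, numbers 4 to 8, were mostly above background. Of 14 measured, 12 were above background on all arrays, and the other 2 were Hoxc8 (above it on 5 arrays) and Hoxc5 (on 2). Hoxc6, a gene of the thoracic level in the trunk, was at 8.83, 8.93 and 8.62 in targeted cells, against 8.92, 8.77 and 8.99 in non-targeted cells. Hoxb5 was at 8.59, 8.68 and 8.81 in targeted cells, against 8.69, 8.65 and 8.24 in non-targeted cells. Hoxa7 was at 8.20, 8.28 and 8.80 in targeted cells, against 8.25, 8.31 and 8.24 in non-targeted cells. The populations overlapped for all 3. The number 4 genes were above background in all 4 clusters, and the number 6 and 7 genes in all clusters that had a measured one. Hoxc4, Hoxd4, Hoxc8 and Hoxd8 were above the 99th percentile of the receptor genes on some arrays only, and Hoxc5 on none.

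The remaining central genes overlapped between the populations as well. Hoxa5, a gene of lung and shoulder patterning, was at 8.67, 7.83 and 8.34 in targeted cells, against 8.13, 8.27 and 8.12 in non-targeted cells. Hoxb6 was at 8.07, 8.37 and 8.19 in targeted cells, against 8.20, 8.33 and 8.41 in non-targeted cells. Hoxd8 was at 7.38, 8.12 and 7.96 in targeted cells, against 8.11, 7.91 and 7.03 in non-targeted cells. Targeted replicate 1 was thus highest for Hoxa5 and lowest for Hoxb6, and non-targeted replicate 3 was lowest for Hoxd8. Hoxc4 was at 6.96, 7.07 and 7.33 in targeted cells, against 7.18, 7.08 and 7.09 in non-targeted cells. Hoxd4 was at 6.71, 7.02 and 7.00 in targeted cells, against 7.06, 6.77 and 6.76 in non-targeted cells. Hoxc5, at 6.36, 6.28 and 6.25 in targeted cells, against 6.38, 6.46 and 6.34 in non-targeted cells, stayed at the background level.

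Of the anterior genes, numbers 1 to 3, 5 of 7 were above background on all arrays. With the 99th percentile as background, Hoxb3 alone stayed above it on all arrays, and Hoxa2, Hoxa3 and Hoxb2 were above it on some. Gsx1 and Cdx1 lay in much the same range, 6.79 to 7.40, so these levels do not by themselves show expression. Hoxa2, a selector gene of the second pharyngeal arch, was at 7.49, 6.97 and 7.72 in targeted cells, against 7.09, 6.83 and 7.23 in non-targeted cells. Hoxb2 and Hoxb3, hindbrain patterning genes, lay between 7.07 and 7.48 over all arrays. Hoxa3, needed for thymus and parathyroid, was at 6.40 to 6.87 in targeted cells and at 6.95 to 7.06 in non-targeted cells. Hoxb1 passed by a small margin, at 6.56 to 6.68 in targeted cells and at 6.38 to 6.73 in non-targeted cells, and was below the 99th percentile of the receptor genes on all arrays. Hoxd3 was above background on the 3 targeted arrays only, by at most 0.16. Hoxd1 was above background on no array, at 5.71 to 5.89 in targeted cells and at 5.59 to 5.78 in non-targeted cells.

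By cluster, 8 of 10 genes of cluster A, 8 of 9 of cluster B, 4 of 9 of cluster C and 5 of 9 of cluster D were above background on all 6 arrays. On single arrays 29, 28 and 26 of the 37 genes were above it in targeted cells, against 27, 28 and 27 in non-targeted cells. The populations thus overlapped in the number of Hox genes above background. The non-coding genes of the clusters and the neighbouring Evx genes gave less signal: of 12 with a value, 2 were above background on all arrays, Hoxd3os1 and Mir615, and 8 on none. Hottip, a non-coding RNA at the 5′ end of cluster A known from human cells as a partner of 5′ HOXA expression, was at 5.65 to 5.91 in targeted cells and at 5.47 to 5.72 in non-targeted cells, below background on every array.

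Upstream sequences are shown for Hoxa10 and Hoxd10, which had the smallest p-values of the comparison below, and for Hoxa13 and Hoxd13, which lay below background on every array. These are the 250 bases before the transcription start in RefSeq (GRCm38.p6), 5′ to 3′ in the direction of transcription, with each CG dinucleotide in capitals.
Hoxa10, start nearer the 3′ end of the cluster (chr6:52234940-52235189, minus strand): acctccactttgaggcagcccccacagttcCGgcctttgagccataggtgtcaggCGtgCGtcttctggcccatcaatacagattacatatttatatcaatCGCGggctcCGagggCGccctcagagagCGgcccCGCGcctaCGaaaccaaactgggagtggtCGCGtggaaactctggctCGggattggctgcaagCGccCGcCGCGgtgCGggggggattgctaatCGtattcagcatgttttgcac
Hoxa10, start nearer the 5′ end of the cluster (chr6:52240855-52241104, minus strand): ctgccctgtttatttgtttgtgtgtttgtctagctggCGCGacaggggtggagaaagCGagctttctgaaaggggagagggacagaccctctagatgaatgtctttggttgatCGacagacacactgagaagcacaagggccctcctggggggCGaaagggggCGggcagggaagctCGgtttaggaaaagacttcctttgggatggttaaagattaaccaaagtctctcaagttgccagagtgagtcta
Hoxd10 (chr2:74691641-74691890, plus strand): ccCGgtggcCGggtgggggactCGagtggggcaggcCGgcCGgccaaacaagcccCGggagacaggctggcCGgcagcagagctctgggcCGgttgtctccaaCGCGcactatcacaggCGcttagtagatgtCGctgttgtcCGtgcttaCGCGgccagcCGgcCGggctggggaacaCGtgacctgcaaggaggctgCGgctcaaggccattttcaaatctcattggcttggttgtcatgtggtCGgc
Hoxa13 (chr6:52260881-52261130, minus strand): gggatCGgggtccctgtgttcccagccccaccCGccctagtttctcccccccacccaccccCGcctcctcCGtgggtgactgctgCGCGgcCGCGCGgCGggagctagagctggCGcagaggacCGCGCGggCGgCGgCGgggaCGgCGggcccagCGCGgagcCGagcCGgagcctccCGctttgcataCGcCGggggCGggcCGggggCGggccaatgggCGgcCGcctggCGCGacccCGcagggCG
Hoxd13 (chr2:74667975-74668224, plus strand): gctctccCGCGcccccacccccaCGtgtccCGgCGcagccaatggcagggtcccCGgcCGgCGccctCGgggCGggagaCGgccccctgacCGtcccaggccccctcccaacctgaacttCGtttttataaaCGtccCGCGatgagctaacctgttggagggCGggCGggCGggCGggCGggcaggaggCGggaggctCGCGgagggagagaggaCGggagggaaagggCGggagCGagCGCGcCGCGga

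The table held 23 such promoters for 21 of the 37 Hox genes, with a median of 13 CG dinucleotides each, against a median of 6 over all 32851 promoters. The 4 promoters of genes below background on all arrays (Hoxa13, Hoxd1, Hoxd12 and Hoxd13) held 35, 24, 10 and 31, a median of 27.5, and the 17 promoters of genes above background on all arrays held a median of 8. This contrast was noticed after the values were seen and is given as a description. The 2 starts of Hoxa10 held 20 and 7, and Hoxd10 held 20. The joint Pbx and Hox motif TGATNNAT, searched on both strands, was in 3 Hox promoters (Hoxa2, Hoxb1 and Hoxd11), of 23, against 7.68% of all promoters. The motif TTTATNG, bound by posterior Hox proteins and also searched on both strands, was in 1, that of Hoxd4, or 4.35%, against 9.81% of all promoters. No match says only that these letters are not in this window.

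Between targeted and non-targeted CAR cells no Hox gene passed the test. The 33.3% of genes with the lowest means were left out as dim, which removed the 8 Hox genes below background on every array and left 29 Hox genes among 13292 tested. The call rule was a limma adjusted p under 0.05 over all genes tested. It called 0 Hox genes and 0 (0%) of all genes. Dmp1 itself, with a log2 difference of 3.28, did not pass (limma adjusted p = 0.384), so 0 calls do not show that Hox genes were unchanged. In 10 simulated runs with 200 changed genes each, the rule called 3.13% of 1.5-fold and 52.5% of 2-fold changes. At an unadjusted p under 0.05 the fit counted 0 of 29 Hox genes, against 634 (4.77%) of all genes. By direction, 3.42% of all genes were counted as lower and 1.35% as higher in targeted cells. Of the Hox genes, 16 had a higher and 13 a lower mean in targeted cells, with a median log2 difference of 0.02, against -0.01 over all genes tested. The adjusted p was 0.9998 for every tested Hox gene. The median size of the log2 differences was 0.15, against 0.13 over all genes tested. The 95% interval excluded a 2-fold difference in either direction for 28 of 29 Hox genes, Hoxd10 being the exception. The SE ran from 0.14 to 0.36 among Hox genes, with a median of 0.19, and the median was also 0.19 over all genes tested.

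**Figure D2:**
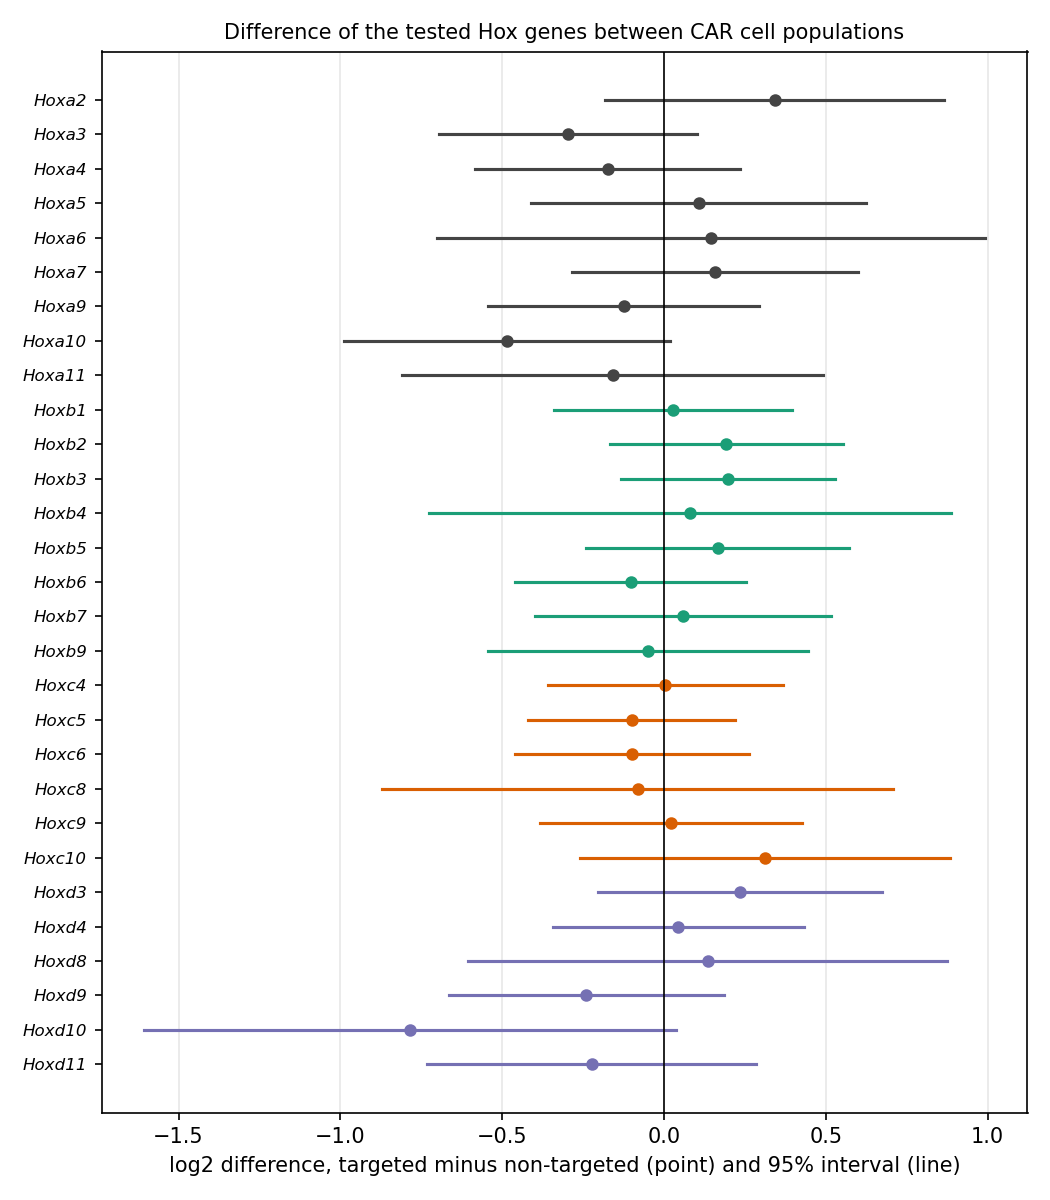
Log2 difference of targeted minus non-targeted CAR cells (horizontal axis) for the 29 tested Hox genes (vertical axis, by cluster and number; colours mark clusters A to D). Points are the limma estimates and lines their 95% intervals, which all include 0, and only the line of Hoxd10 reaches beyond a 2-fold difference.

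The smallest p-values and the largest differences were those of Hoxa10 and Hoxd10, both with lower means in targeted cells, while Hoxc10 had a higher mean. Hoxd10 was at 8.41, 7.40 and 8.12 in targeted cells, against 8.37, 8.47 and 9.44 in non-targeted cells. Targeted replicate 2 was the lowest and non-targeted replicate 3 the highest, and the populations overlapped, since targeted replicate 1 was above non-targeted replicate 1. The means were 7.98 ± 0.52 and 8.76 ± 0.59 (SD, n = 3 each), a log2 difference of -0.78 (limma SE 0.35, 95% interval -1.61 to 0.04, unadjusted p = 0.0589), or 1.72-fold lower. Leaving out targeted replicate 2 gave a difference of -0.50, and leaving out non-targeted replicate 3 gave -0.44. Leaving out targeted replicate 1 gave -1.002, and weighting the arrays by their quality gave -1.46 (limma adjusted p = 0.170).

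Hoxa10 was at 7.41, 7.26 and 7.29 in targeted cells, against 8.08, 7.34 and 7.99 in non-targeted cells. The targeted arrays lay close together, and non-targeted replicate 2 lay with them, below targeted replicate 1. The means were 7.32 ± 0.08 and 7.80 ± 0.40 (SD, n = 3 each), a log2 difference of -0.48 (limma SE 0.22, 95% interval -0.99 to 0.02, unadjusted p = 0.0568). Without non-targeted replicate 2 it was -0.72 (limma unadjusted p = 0.00387, the lowest of the leave-one-out fits for this gene), and it did not pass after adjustment. Hoxc10, a gene used in hindlimb but little in forelimb, was at 7.87, 7.62 and 7.70 in targeted cells, against 7.07, 7.21 and 7.97 in non-targeted cells. All targeted arrays were above the first 2 non-targeted arrays and below the other. The means were 7.73 ± 0.13 and 7.42 ± 0.48 (SD, n = 3 each), and the log2 difference was 0.31 (limma SE 0.25, 95% interval -0.26 to 0.88, unadjusted p = 0.243), 0.59 without non-targeted replicate 3 and 0.14 without non-targeted replicate 1. Whether these 3 genes differ from each other in response was not tested.

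**Figure D3:**
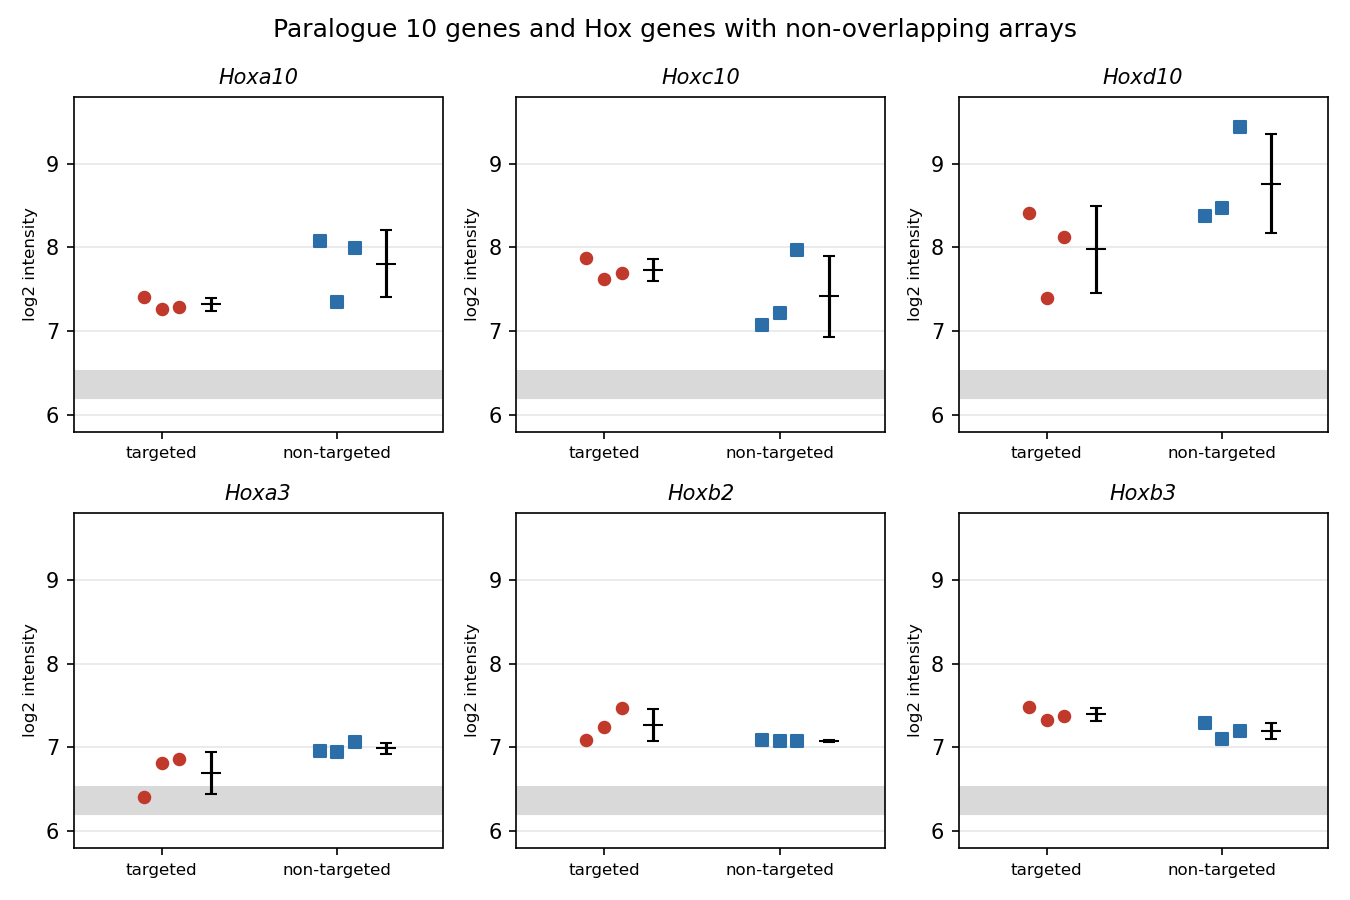
Log2 intensity (vertical axis) of the number 10 genes in the upper row and of the Hox genes with non-overlapping arrays in the lower row, with circles for the 3 targeted and squares for the 3 non-targeted arrays in replicate order. Black marks are the mean and SD of a population, and the grey band is the receptor-gene background. Hoxd10 has the widest spread, from 7.40 to 9.44.

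The posterior genes were lower in targeted cells more often than not by their means. Of 9 tested genes of numbers 9 to 13, 7 had a lower and 2 a higher mean in targeted cells, with a median log2 difference of -0.16, and 0 passed. Besides the number 10 genes, Hoxd9 was at 7.54, 7.88 and 7.28 in targeted cells, against 7.82, 7.80 and 7.80 in non-targeted cells (log2 difference -0.24, limma SE 0.18, unadjusted p = 0.226). Without targeted replicate 3 the difference was -0.10, and without targeted replicate 2 it was -0.40. The non-targeted arrays of Hoxd9 lay almost on the same value, and the targeted arrays lay on both sides of them. Hoxd11 had a log2 difference of -0.22 (limma SE 0.22, unadjusted p = 0.338), which was 0.0065 without non-targeted replicate 3, the array that was also highest for Hoxd10, -0.36 without non-targeted replicate 2 and -0.55 with array weights. Hoxa11 differed by -0.16 and Hoxa9 by -0.12, both with overlapping arrays.

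The central genes had a median difference closer to 0. Of 14 tested, 9 had a higher and 5 a lower mean in targeted cells, a median log2 difference of 0.05, and differences between -0.17 and 0.17. Hoxa4 was at 7.66, 8.07 and 8.19 in targeted cells, against 8.18, 8.15 and 8.13 in non-targeted cells (log2 difference -0.17, limma SE 0.18, unadjusted p = 0.355), and the difference was -0.02 without targeted replicate 1 and -0.28 without targeted replicate 3. Hoxb5 differed by 0.17 (limma SE 0.17, unadjusted p = 0.373), by 0.02 without non-targeted replicate 3 and by 0.40 with array weights. Some central genes varied widely within a population. Hoxb4, a gene known for the expansion of blood stem cells, was at 7.14, 8.62 and 8.18 in targeted cells, against 7.91, 8.01 and 7.78 in non-targeted cells. Its lowest and highest values were both in targeted cells. Hoxc8 was at 7.77, 6.82 and 6.44 in targeted cells, against 6.75, 7.34 and 7.18 in non-targeted cells. Hoxa6 was at 8.73, 7.91 and 8.20 in targeted cells, against 7.37, 8.74 and 8.29 in non-targeted cells. For Hoxc8 the non-targeted arrays all lay within the span of the targeted arrays, and for Hoxa6 the targeted arrays all lay within the span of the non-targeted arrays.

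The anterior genes had higher means in targeted cells in 5 of 6 cases, with a median log2 difference of 0.20, and 0 passed. Hoxa2 differed by 0.34 (limma SE 0.23, 95% interval -0.18 to 0.87, unadjusted p = 0.169), by 0.18 without targeted replicate 3 and by 0.55 without targeted replicate 2 (limma unadjusted p = 0.0291, adjusted p = 0.959). Hoxd3 was at 6.26, 6.69 and 6.58 in targeted cells, against 6.43, 6.01 and 6.39 in non-targeted cells (log2 difference 0.23, limma SE 0.19, unadjusted p = 0.253). For both genes the populations overlapped, and Hoxd3 lay near background throughout. The difference of Hoxd3 was 0.36 without targeted replicate 1 and 0.14 without targeted replicate 2, and leaving out non-targeted replicate 2 gave 0.10. Hoxb3 was at 7.48, 7.33 and 7.37 in targeted cells, against 7.30, 7.10 and 7.19 in non-targeted cells (log2 difference 0.20, limma SE 0.14, unadjusted p = 0.203). Hoxb2 was at 7.09, 7.25 and 7.47 in targeted cells, against 7.09, 7.07 and 7.07 in non-targeted cells (log2 difference 0.19, limma SE 0.15, unadjusted p = 0.250). The arrays of the populations did not overlap for Hoxb3 and Hoxb2, although for Hoxb2 the nearest arrays were equal to 2 decimals and the difference was 0.09 without targeted replicate 3 and 0.28 without targeted replicate 1. Hoxa3 was at 6.40, 6.81 and 6.87 in targeted cells, against 6.96, 6.95 and 7.06 in non-targeted cells (log2 difference -0.30, limma SE 0.17, unadjusted p = 0.124), and the difference was -0.15 without targeted replicate 1. It was the Hox gene whose targeted arrays all lay below all non-targeted arrays.

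These 3 non-overlapping genes were 10.3% of the Hox genes tested, against 9.07% of all genes tested. By direction, 2 of 29 (6.9%) were higher in targeted cells, against 3.32% of all genes, and 1 of 29 (3.45%) was lower, against 5.76% of all genes. The share over both directions was near that of all genes.

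Most Hox cofactor genes were above background too. Of 8 with a value, 7 were above background on all arrays, and Pknox1, at 5.62 to 5.87 in targeted cells and at 5.71 to 5.76 in non-targeted cells, on none. Pbx2 was at 7.72, 8.06 and 7.71 in targeted cells, against 8.24, 8.22 and 8.53 in non-targeted cells (log2 difference -0.50, limma SE 0.17, adjusted p = 0.950). Pbx3 was at 8.42, 8.01 and 8.83 in targeted cells, against 8.97, 8.95 and 8.94 in non-targeted cells (log2 difference -0.53, limma SE 0.22, adjusted p = 0.9998). For both genes all targeted arrays lay below all non-targeted arrays, as was so for 5.76% of all genes tested, and neither passed. Meis2 differed by -0.31 and Meis1 by 0.11, with Meis1 at 8.36, 7.20 and 7.75 in targeted cells, against 7.60, 7.64 and 7.73 in non-targeted cells. Over the 7 tested cofactor genes, 3 had a higher and 4 a lower mean in targeted cells, with a median log2 difference of -0.08.

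**Figure D4:**
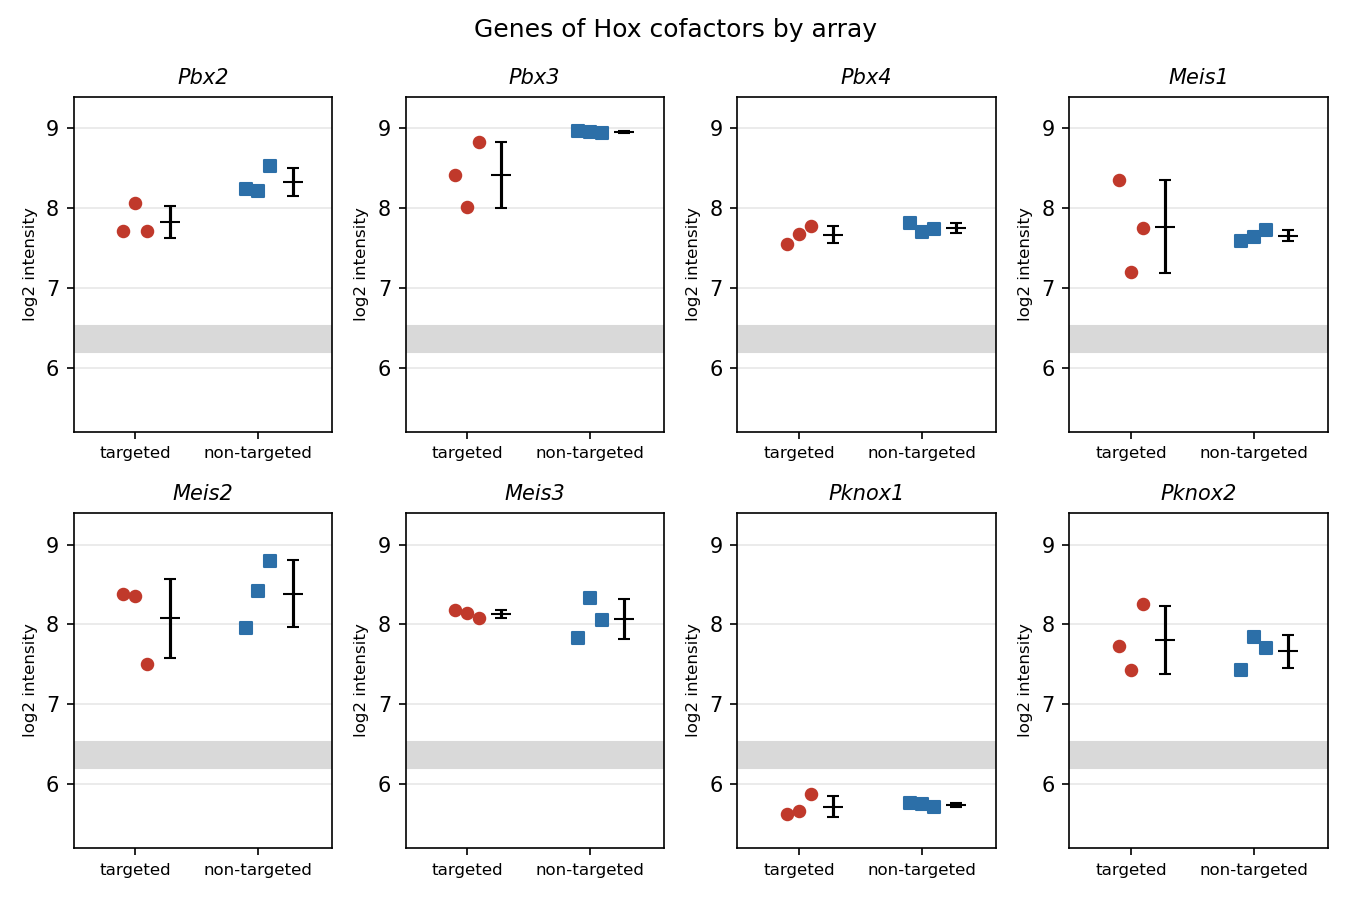
Log2 intensity (vertical axis) of 8 genes of Hox cofactors, with circles for the 3 targeted and squares for the 3 non-targeted arrays in replicate order. Black marks are the mean and SD of a population, and the grey band is the receptor-gene background. The targeted arrays of Pbx2 and Pbx3 lie below the non-targeted ones, and Pknox1 lies under the band.

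Of 20 factors of the limb field and limb patterning, 11 were above background on all arrays and 4 genes on none. The rest were above it on some arrays, among them Pitx1, the factor that specifies hindlimb, at 6.38, 6.46 and 6.45 in targeted cells, against 6.51, 6.60 and 6.55 in non-targeted cells. Tbx4, a hindlimb field gene, was at 6.10 to 6.46 in targeted cells and at 6.10 to 6.52 in non-targeted cells, above background on 1 array, and Tbx5, its forelimb counterpart, was at 5.15 to 5.70 in targeted cells and at 5.16 to 5.67 in non-targeted cells, above it on none. Prrx1, a marker of limb mesenchyme, was at 10.58, 9.45 and 10.35 in targeted cells, against 9.96, 10.29 and 10.21 in non-targeted cells. Of 16 tested, 8 had a higher and 8 a lower mean in targeted cells, and 0 passed. Tbx2, at 8.26, 8.22 and 8.61 in targeted cells, against 7.94, 7.99 and 7.85 in non-targeted cells, had the smallest p of the list (log2 difference 0.44, limma SE 0.16, adjusted p = 0.970). Tbx15, a factor of limb and skeletal development, was at 8.26, 8.06 and 8.21 in targeted cells, against 8.48, 8.37 and 8.54 in non-targeted cells. All targeted arrays were above all non-targeted arrays for Tbx2 and below them for Tbx15 and Pitx1. Arrays did not overlap for 9.07% of all genes tested. Pitx1 lay near background, with a log2 difference of -0.12 (limma unadjusted p = 0.404).

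Of 20 tested Polycomb and Trithorax genes, whose products keep Hox clusters silent or active, 8 had a higher and 12 a lower mean in targeted cells, with a median log2 difference of -0.02, and 0 passed. Suz12, a core subunit of Polycomb complex PRC2, was at 6.59, 6.67 and 6.43 in targeted cells, against 7.14, 6.83 and 7.12 in non-targeted cells (log2 difference -0.47, limma SE 0.16, adjusted p = 0.947). Ezh1, a PRC2 methyltransferase, was at 8.77, 9.33 and 8.92 in targeted cells, against 9.36, 9.78 and 9.57 in non-targeted cells (log2 difference -0.56, limma SE 0.20, adjusted p = 0.956). Its paralogue Ezh2 differed by 0.12. Kmt2a, a Trithorax methyltransferase needed to maintain Hox expression, differed by -0.31 with overlapping arrays.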

How the data were processed

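RNA of sorted CAR cells was labelled with a kit for picogram amounts and hybridised to Affymetrix mogene ST arrays. Per the submitters' processing notes, the authors used RMA and Affymetrix Expression Console 1.4, and the deposited values were intensities per probe set on a linear scale. A genome build and array annotation are not given in the labels or headers. Log2 input had been planned for, and intensities were therefore converted to log2 first. Of 35556 probe sets, 21789 named exactly 1 gene through the platform annotation, with symbols updated by Entrez identifier in the RefSeq table for 21698. The brightest probe set per gene gave 19938 genes, and the 33.3% with the lowest means (log2 intensity of 6 or less) were left out as dim. Groups followed the sample titles and were compared in R 4.3.3 by limma 3.58.1 (linear model with empirical Bayes variances, no covariate, two-sided, Benjamini-Hochberg over 13292 genes), and the procedure was tested on simulated data. Figures used matplotlib 3.10.9. The number of arrays limits the precision, and p-values measure the spread between these 3 arrays per group. Full statistics were given for the 6 tested Hox genes of smallest p in each direction. From each pathway list up to 4 genes of smallest p were eligible, with Meis1, Pitx1, Tbx4, Tbx5, Prrx1 and Dmp1 added, and other genes named were chosen after their values were seen. The members and lists were chosen with earlier results of these data known. Alternatives changed the filter, scaling, variance model, weights, probe set rule, replicate block and background percentile, and left out each array in turn.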

Additional observations from a re-analysis of the deposited data

How the results depend on the processing

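No Hox gene was called under any of the 16 alternatives to the fit. Over all genes, array weights and the replicate number as a fixed block each called 1 gene, Dmp1, and the other alternatives called 0. The log2 difference of Hoxc10 was -0.14 with array weights, against 0.31, and that of Hoxd11 ran from -0.36 to 0.0065 over the leave-one-out fits. The median log2 difference of the Hox genes ran from -0.08 to 0.05 over all alternatives. With array weights 3 of 29 Hox genes were lower (Hoxa10, Hoxd10 and Hoxd11) and Hoxb5 was higher at an unadjusted p under 0.05, where 2060 of all 13292 genes had such a p, against 634 without weights. Raising the background to the 99th percentile of receptor genes left 15 Hox genes above it on all arrays, against 25, and the 90th percentile gave 29.

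Replicate numbers are shared by the groups, but the labels do not say that a number marks a mouse. Xist was at 12.00 in targeted replicate 1 and 11.31 in non-targeted replicate 1, and at 5.64 to 5.88 on the other 4 arrays, and Kdm5d, a gene of the Y chromosome, was at 5.96, 7.17 and 6.82 in targeted cells, against 6.02, 7.79 and 7.22 in non-targeted cells, so replicate 1 of both groups shared a female pattern, as the same mouse under number 1 would. This does not bear on numbers 2 and 3. If the same 3 mice of the design text gave both populations, the arrays are paired by mouse, which the main fit leaves out. In that case number 1 was the same mouse in both, since only 1 array per group had the female pattern. Deviations of same-numbered arrays from their group's mean correlated at -0.26, -0.12 and 0.07 across genes. Deviations within a group sum to 0, and targeted replicate 1 stood apart, so these correlations cannot decide pairing. Pairing by number is not stated in the labels, and the block is an alternative. When the replicate number entered as a fixed block, 0 Hox genes were called and Hoxd10 had an unadjusted p of 0.0292 (limma). With it as a random block 0 were called and the p of Hoxd10 was 0.102. Values near background, such as those of Hoxb1, Hoxc5 and Hoxd3, limit what the arrays can show.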

Other observations

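The probe set shared by Hoxb8 and Hoxb7 was at 6.73, 7.40 and 7.19 in targeted cells, against 7.44, 7.26 and 7.51 in non-targeted cells, while the probe set of Hoxb7 alone was at 7.33, 7.81 and 7.30 in targeted cells, against 7.63, 7.22 and 7.40 in non-targeted cells. Hoxd3os1, an antisense transcript of cluster D, had 2 probe sets that differed in whether the populations overlapped. The brighter was at 6.64, 7.41 and 7.28 in targeted cells, against 7.19, 6.60 and 6.78 in non-targeted cells, and the other was at 6.86, 6.84 and 6.50 in targeted cells, against 6.48, 6.19 and 6.32 in non-targeted cells, where no arrays overlapped.

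Across the 25 Hox genes above background on all arrays, non-targeted replicate 3 held the highest value for 10 genes and targeted replicate 1 the lowest for 8. The median log2 intensity of these genes was 7.49, 7.81 and 7.75 on the targeted arrays, against 7.82, 7.80 and 7.83 on the non-targeted arrays. Over all 37 Hox genes the median was 7.33, 7.26 and 7.30 on the targeted arrays, against 7.18, 7.10 and 7.19 on the non-targeted arrays. Targeted replicate 1 was thus the lowest array by the 25 genes and the highest by all 37.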
